A study of Mus musculus with 36 samples.

Results

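Ribosome biogenesis factors are the proteins that transcribe, modify, cut and package ribosomal RNA but are not part of the finished ribosome. The 60 described here were chosen by gene symbol, and all 60 were found among the 11337 genes of the deposited table. RNA polymerase I transcribes the ribosomal RNA genes in the nucleolus, and box C/D and box H/ACA small nucleolar ribonucleoproteins (snoRNPs) guide methylation and pseudouridylation of the transcript. The small subunit processome and later maturation factors build the small ribosomal subunit, and a separate series of assembly factors builds the large one. In quiescent muscle stem cells ribosome production is known to be low and to rise on activation, and many of these genes are known targets of the transcription factor Myc.

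Polyadenylated RNA was sequenced from muscle stem cells (MuSCs, the satellite cells of skeletal muscle) of hindlimbs of 36 male C57BL6 mice, each giving 1 library. The wheel cohort had a running wheel in the cage for 3 weeks, and its cells were sorted as VCAM positive and negative for CD31, CD45, Sca1 and DAPI. Its groups were O(+Ex) (18 months, free wheel, n = 5), O(-Ex) (18 months, locked wheel, n = 7), Y(+Ex) (3 months, free wheel, n = 3) and Y(-Ex) (3 months, locked wheel, n = 6). In the cyclin D1 (Ccnd1) cohort all mice carried Pax7_CreERT2 and R26R_YFP and received tamoxifen, and YFP-positive, DAPI-negative cells were sorted 6 weeks later. Its groups were Y(KO) (3 months, Ccnd1_flox/flox, n = 5), Y(HET) (3 months, Ccnd1_+/flox, n = 4), O(WT) (18 months, Ccnd1_+/+, n = 3) and Y(WT) (3 months, Ccnd1_+/+, n = 3). Cre is driven by Pax7, so recombination is limited to cells that express Pax7 and their progeny.

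Values are RPKM, read counts scaled to gene length and to library size, so levels can be set side by side between genes. Sequencing depth was 20 to 40 M reads per the labels, and the RPKM values give no depth for single libraries. Ccnd1 averaged 2.71 RPKM in Y(KO), 7.18 RPKM in Y(HET) and 11.7 RPKM in Y(WT) libraries, in the order of the labels. All 11 satellite cell markers looked for were present, and Pax7 lay between 14.2 and 32.5 RPKM in the 36 libraries. The table had lost 6 directions of variation among libraries. At an unadjusted p under 0.05 limma found 0 of 11337 genes for O(WT) against O(-Ex) and 0 for Y(WT) against Y(-Ex). The age differences of the cohorts are therefore not independent measurements. Within groups, with the control groups of each age merged, 24 directions remained where 30 were expected. The fits made no allowance for this loss. Standard errors and p-values below may therefore be too small, and counts of called genes too high, by an amount that was not tested. Among the members, Y(-Ex) replicate 4 stood above the rest of its group and Y(HET) replicate 3 below the rest of its own, and Y(HET) replicate 3 also had the lowest RPKM sum of the 36 libraries. In bulk samples, more RNA of a gene per cell and more cells of a type that expresses it cannot be told apart.

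The members were abundant transcripts, with means over all libraries of 3.28 to 327 RPKM. The median of the member means was 31.9 RPKM, and the median over all genes was 6.12 RPKM. No member fell under 1 RPKM in any library. Npm1 (nucleophosmin, a nucleolar chaperone), Nop56 (a core protein of box C/D snoRNPs) and Gnl3 (nucleostemin, a nucleolar GTPase) had the highest means. Utp20 (a processome scaffold protein), Wdr12 (a subunit of the PeBoW complex) and Polr1a (the largest RNA polymerase I subunit) had the lowest.

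To summarise the set, each member's log2 RPKM was expressed relative to its Y(-Ex) group mean, and the median over the 60 members was taken in each library. This median lay at 0.32 to 0.60 in the O(+Ex) libraries, and in the O(-Ex) libraries its lowest, median and highest values were 0.40, 0.56 and 0.67. It lay at -0.19 to -0.17 in the Y(+Ex) libraries, and the Y(-Ex) libraries had a lowest, median and highest value of -0.05, -0.03 and 0.16. In the Ccnd1 cohort it was 0.27 to 0.43 in Y(KO), -0.27 to 0.06 in Y(HET), 0.55 to 0.58 in O(WT) and -0.06 to 0.03 in Y(WT) libraries. Every old library and every KO library lay above every library of the other young groups. The 3 old groups overlapped each other, and the KO range overlapped those of O(+Ex) and O(-Ex). Y(HET), Y(WT) and Y(-Ex) overlapped each other, and the Y(HET) range also spanned that of Y(+Ex). Y(-Ex) replicate 4 was at 0.16, with the next library of its group at 0.01, and Y(HET) replicate 3 was at -0.27, with the next library of its group at -0.09. Over all genes the median of Y(HET) replicate 3 was also -0.09, the lowest of the 36 libraries. By group means, 27 members were highest in O(WT), 19 in O(-Ex), 11 in O(+Ex) and 3 in Y(KO), while 34 were lowest in Y(+Ex), 23 in Y(HET) and 3 in Y(WT). As a share of all RPKM in the table, the members took 0.892% to 1.03% in O(-Ex) libraries and 0.646% to 0.744% in Y(-Ex) libraries.

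**Figure D1:**
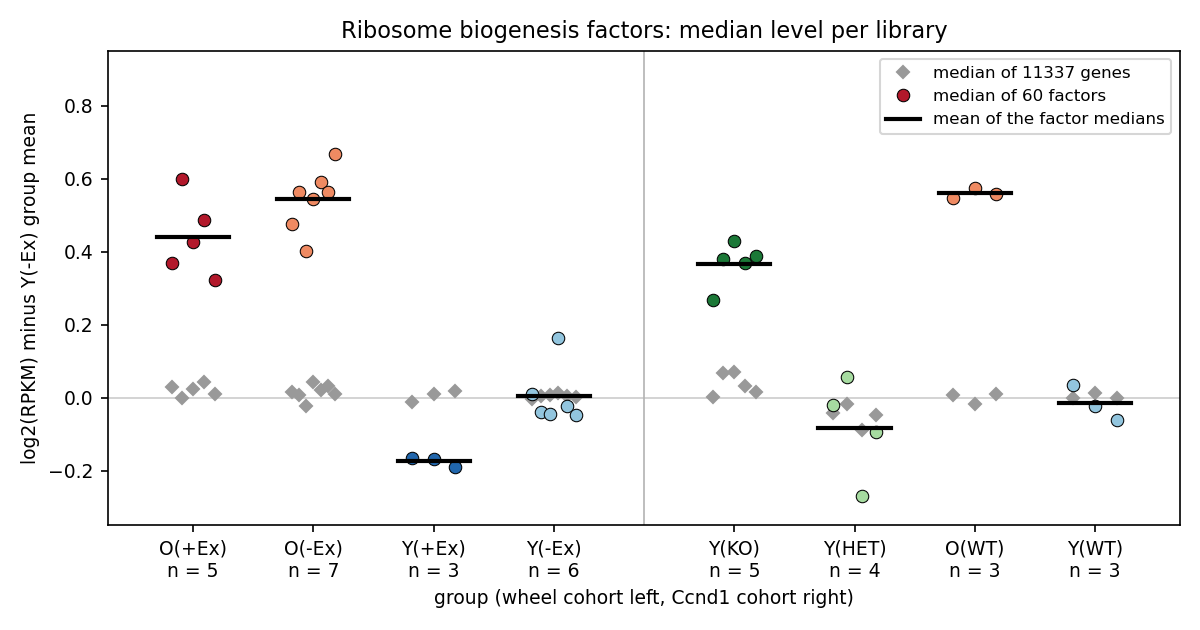
Median log2 RPKM of the 60 ribosome biogenesis factors in each library (coloured points) and of all 11337 genes (grey diamonds), relative to the Y(-Ex) group mean of each gene; black lines are group means of the factor medians. Old and KO libraries lie between 0.27 and 0.67, and the other young libraries between -0.27 and 0.16.

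Because the members moved together, their promoters were read for the E-box CACGTG, a palindrome known to bind Myc and related factors. RefSeq start sites (GRCm38.p6, the mm10 assembly) gave promoters of 250 bases before to 50 bases after the start for 53 of the 60 members. CACGTG occurred in at least 1 promoter of 11 of the 53 (20.8%), against 12.3% of the 8859 genes of the deposited table with a promoter and 8.09% of 27025 genes of the promoter table. The related hexamer CACGCG, searched on both strands, occurred in 18 of the 53 (34.0%), against 20.3% of the 8859 genes. Of 12 distinct CACGTG sites, 10 lay within 100 bases before to 50 after a start. Shown are 3 members with CACGTG, in capitals, and Nop16, whose window holds CACGCG but no CACGTG.
Pes1 (chr11:3963725-3964024, plus strand): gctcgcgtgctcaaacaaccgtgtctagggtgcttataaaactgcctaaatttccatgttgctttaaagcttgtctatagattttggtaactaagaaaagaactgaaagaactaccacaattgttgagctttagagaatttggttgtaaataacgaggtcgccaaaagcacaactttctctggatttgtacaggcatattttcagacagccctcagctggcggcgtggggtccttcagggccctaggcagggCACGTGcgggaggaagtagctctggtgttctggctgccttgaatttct
Nop2 (chr6:125131633-125131932, plus strand): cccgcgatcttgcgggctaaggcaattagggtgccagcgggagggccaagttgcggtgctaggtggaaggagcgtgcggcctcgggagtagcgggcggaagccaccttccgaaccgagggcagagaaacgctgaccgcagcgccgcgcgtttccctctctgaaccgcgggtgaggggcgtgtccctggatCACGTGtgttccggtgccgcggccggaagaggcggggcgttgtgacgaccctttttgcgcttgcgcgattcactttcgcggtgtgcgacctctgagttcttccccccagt
Utp20 (chr10:88826765-88827064, minus strand): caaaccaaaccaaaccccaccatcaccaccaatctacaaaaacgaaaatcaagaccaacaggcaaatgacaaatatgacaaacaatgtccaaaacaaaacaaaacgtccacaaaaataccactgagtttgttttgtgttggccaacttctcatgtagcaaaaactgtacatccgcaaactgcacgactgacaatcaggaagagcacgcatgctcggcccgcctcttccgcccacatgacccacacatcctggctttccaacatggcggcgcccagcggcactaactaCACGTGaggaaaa
Nop16 (chr13:54590025-54590324, minus strand): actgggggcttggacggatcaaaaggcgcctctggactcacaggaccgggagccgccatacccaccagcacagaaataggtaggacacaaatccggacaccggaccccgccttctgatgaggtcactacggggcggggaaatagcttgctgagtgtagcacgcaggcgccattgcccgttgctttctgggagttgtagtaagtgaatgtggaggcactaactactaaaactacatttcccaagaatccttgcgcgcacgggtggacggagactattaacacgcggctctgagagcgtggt
Pes1, which holds CACGCG as well, and Nop2 were higher in old cells, and Utp20, which also holds CACGTG, did not pass the test in any age comparison. Nop16, with CACGCG alone, had the lowest p of all members for age with a locked wheel. With age and a locked wheel, 9 of the 11 members with CACGTG and 38 of the 42 without it were called higher, with median log2 changes of 0.54 in both sets. A match is a description of the letters in the window and not a binding site.

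The first question was how the factors differ with age in mice with a locked wheel. In O(-Ex) against Y(-Ex) libraries, 54 of 60 members were higher, 0 were lower and 6 did not pass limma's test at a Benjamini-Hochberg adjusted p under 0.05 over all genes. Of all genes, 20.5% were called higher and 17.8% lower. All 60 log2 changes were positive, from 0.10 to 1.00 with a median of 0.54, and the median over all genes was 0.01. For 41 members every O(-Ex) library lay above every Y(-Ex) library, which held for 6.96% of all genes.

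Of the 6 RNA polymerase I genes 4 were called higher. Polr1c, a subunit shared by RNA polymerases I and III (chr17:46243920-46248054, minus strand, mm10), had a lowest, median and highest value of 51.5, 59.2 and 61.8 RPKM in O(-Ex) libraries and of 33.5, 38.6 and 41.1 RPKM in Y(-Ex) libraries. The groups did not overlap, and the log2 change was 0.62 ± 0.06 (SE, limma adjusted p = 1.2e-07). Polr1b, a core subunit of the polymerase, averaged 7.12 ± 0.765 RPKM in O(-Ex) and 4.60 ± 0.487 RPKM in Y(-Ex) libraries (SD, n = 7 and 6; log2 change 0.63 ± 0.10). Polr1e and the initiation factor Rrn3 were also called higher, by 0.52 and 0.20 on the log2 scale. Polr1a averaged 5.02 ± 0.476 RPKM in O(-Ex) and 4.46 ± 0.357 RPKM in Y(-Ex) libraries, which did not pass the test (limma adjusted p = 0.11). Ubtf, which binds ribosomal DNA, did not pass either (log2 change 0.14, adjusted p = 0.21).

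Of the snoRNP proteins, 3 of 4 box C/D and 4 of 4 box H/ACA members were called higher. Nop56 had a lowest, median and highest value of 142, 168 and 206 RPKM in O(-Ex) libraries and of 93.9, 104 and 115 RPKM in Y(-Ex) libraries. The ranges did not overlap, and the log2 change was 0.73 ± 0.08 (limma adjusted p = 7.27e-07). Fbl, the methyltransferase of box C/D snoRNPs, was higher by 0.68 ± 0.07. Rrp9, a protein of the U3 snoRNP, averaged 54.5 ± 4.48 RPKM in O(-Ex) and 32.2 ± 6.91 RPKM in Y(-Ex) libraries. Nop58, the partner of Nop56, averaged 102 ± 7.89 RPKM in O(-Ex) and 89.8 ± 10.2 RPKM in Y(-Ex) libraries, and did not pass (adjusted p = 0.0724).

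Nhp2, a core H/ACA protein that is also part of telomerase (chr11:51619735-51623714, plus strand), showed 1 of the largest changes. It had a lowest, median and highest value of 83.7, 98.4 and 121 RPKM in O(-Ex) libraries and of 43.8, 50.7 and 60.1 RPKM in Y(-Ex) libraries. The lowest old library was above the highest young one, and the log2 change was 0.96 ± 0.09 (limma adjusted p = 1.02e-07). Gar1, another H/ACA protein, was higher by 0.73 ± 0.11. The pseudouridine synthase Dkc1 and the small protein Nop10 were higher by 0.50 and 0.42.

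In the small subunit processome 12 of 14 members were called higher, with a median log2 change of 0.41, and in later small subunit maturation 5 of 5, with a median of 0.59. Utp15 averaged 18.1 ± 1.42 RPKM in O(-Ex) and 11.4 ± 0.559 RPKM in Y(-Ex) libraries (log2 change 0.66 ± 0.07, limma adjusted p = 2.98e-07). Utp3 was higher by 0.43 ± 0.06. Utp20, at 3.04 to 3.96 RPKM in O(-Ex) and 2.78 to 3.57 RPKM in Y(-Ex) libraries, and Nop14, with a log2 change of 0.10, did not pass. Among maturation factors, the GTPase-like protein Tsr1 averaged 32.1 ± 4.10 RPKM in O(-Ex) and 21.1 ± 1.10 RPKM in Y(-Ex) libraries (log2 change 0.59 ± 0.08). Nob1, the endonuclease that makes the last cut of small subunit RNA, was higher by 0.51 ± 0.07.

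All 22 large subunit assembly factors were called higher with age and a locked wheel, by 0.32 to 1.00 with a median of 0.58. Nop16, a nucleolar assembly factor (chr13:54584185-54590090, minus strand), had a lowest, median and highest value of 79.7, 87.4 and 103 RPKM in O(-Ex) libraries and of 47.7, 50.1 and 53.6 RPKM in Y(-Ex) libraries. The young libraries lay close together and all old ones above them, with a log2 change of 0.82 ± 0.07 (limma adjusted p = 3.57e-08). Ppan, an assembly factor of the Brix family, was higher by 0.75 ± 0.08. The largest change of any member was that of Rrs1, which acts with Rpf2 to bring a small ribonucleoprotein into the large subunit. Rrs1 averaged 64.2 ± 8.63 RPKM in O(-Ex) and 32.4 ± 6.17 RPKM in Y(-Ex) libraries (log2 change 1.00 ± 0.12), while Rpf2 itself was higher by 0.51. Rrs1, Rpf2 and Rrp9 were named after their values were seen.

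Within the large subunit pathway, known complexes and families can be read as units. The PeBoW complex, which acts on the precursor of the large subunit RNAs, consists of Pes1, Bop1 and Wdr12, and their log2 changes with age and a locked wheel were 0.63, 0.35 and 0.51. The GTPases Gnl3, Gnl2 and Gtpbp4, which act at successive steps of assembly, were higher by 0.48, 0.32 and 0.42. The RNA helicases Ddx18 and Ddx56 were higher by 0.56 and 0.52. Noc2l and Noc3l, which are bound to nucleolar precursors of the large subunit, were higher by 0.62 and 0.75, and Noc4l, their relative in the small subunit processome, by 0.33. The Brix domain proteins Brix1, Rpf2 and Ppan were higher by 0.47, 0.51 and 0.75, and Imp4, the Brix domain protein of the processome, by 0.51. All of these were called, and values within a family differed.

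In the processome, Wdr43, Utp15, Wdr75 and Heatr1, counterparts of the yeast t-UTP proteins that join the transcript early, were higher by 0.64, 0.66, 0.28 and 0.64. Wdr3 and Wdr36, counterparts of yeast UTP-B proteins, were higher by 0.30 and 0.54. Imp3, which binds the U3 RNA with Imp4, had a lowest, median and highest value of 21.1, 25.0 and 38.9 RPKM in O(-Ex) libraries and of 13.8, 17.0 and 20.3 RPKM in Y(-Ex) libraries. Its groups separated by less than 1 RPKM, and the log2 change was 0.70 ± 0.13 (limma adjusted p = 2.32e-04). The methyltransferase Emg1 was higher by 0.27 and the processome protein Utp14a by 0.38.

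Among the multifunctional nucleolar proteins 4 of 5 were called higher. Ncl (nucleolin) had a lowest, median and highest value of 127, 157 and 161 RPKM in O(-Ex) libraries and of 96.7, 97.8 and 114 RPKM in Y(-Ex) libraries. The groups did not overlap, and the log2 change was 0.60 ± 0.06 (limma adjusted p = 5.94e-07). Nolc1, a snoRNP chaperone, was higher by 0.61 ± 0.07. Npm1, the most abundant member, had 357 to 421 RPKM in O(-Ex) and 253 to 430 RPKM in Y(-Ex) libraries. These ranges overlapped through Y(-Ex) replicate 4 at 430 RPKM, the other Y(-Ex) libraries reaching 291 RPKM. Mybbp1a, a Myb-binding nucleolar protein, did not pass (log2 change 0.14, adjusted p = 0.19). Leaving out any 1 library, Y(-Ex) replicate 4 included, left 53 or 54 members called higher.

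**Figure D2:**
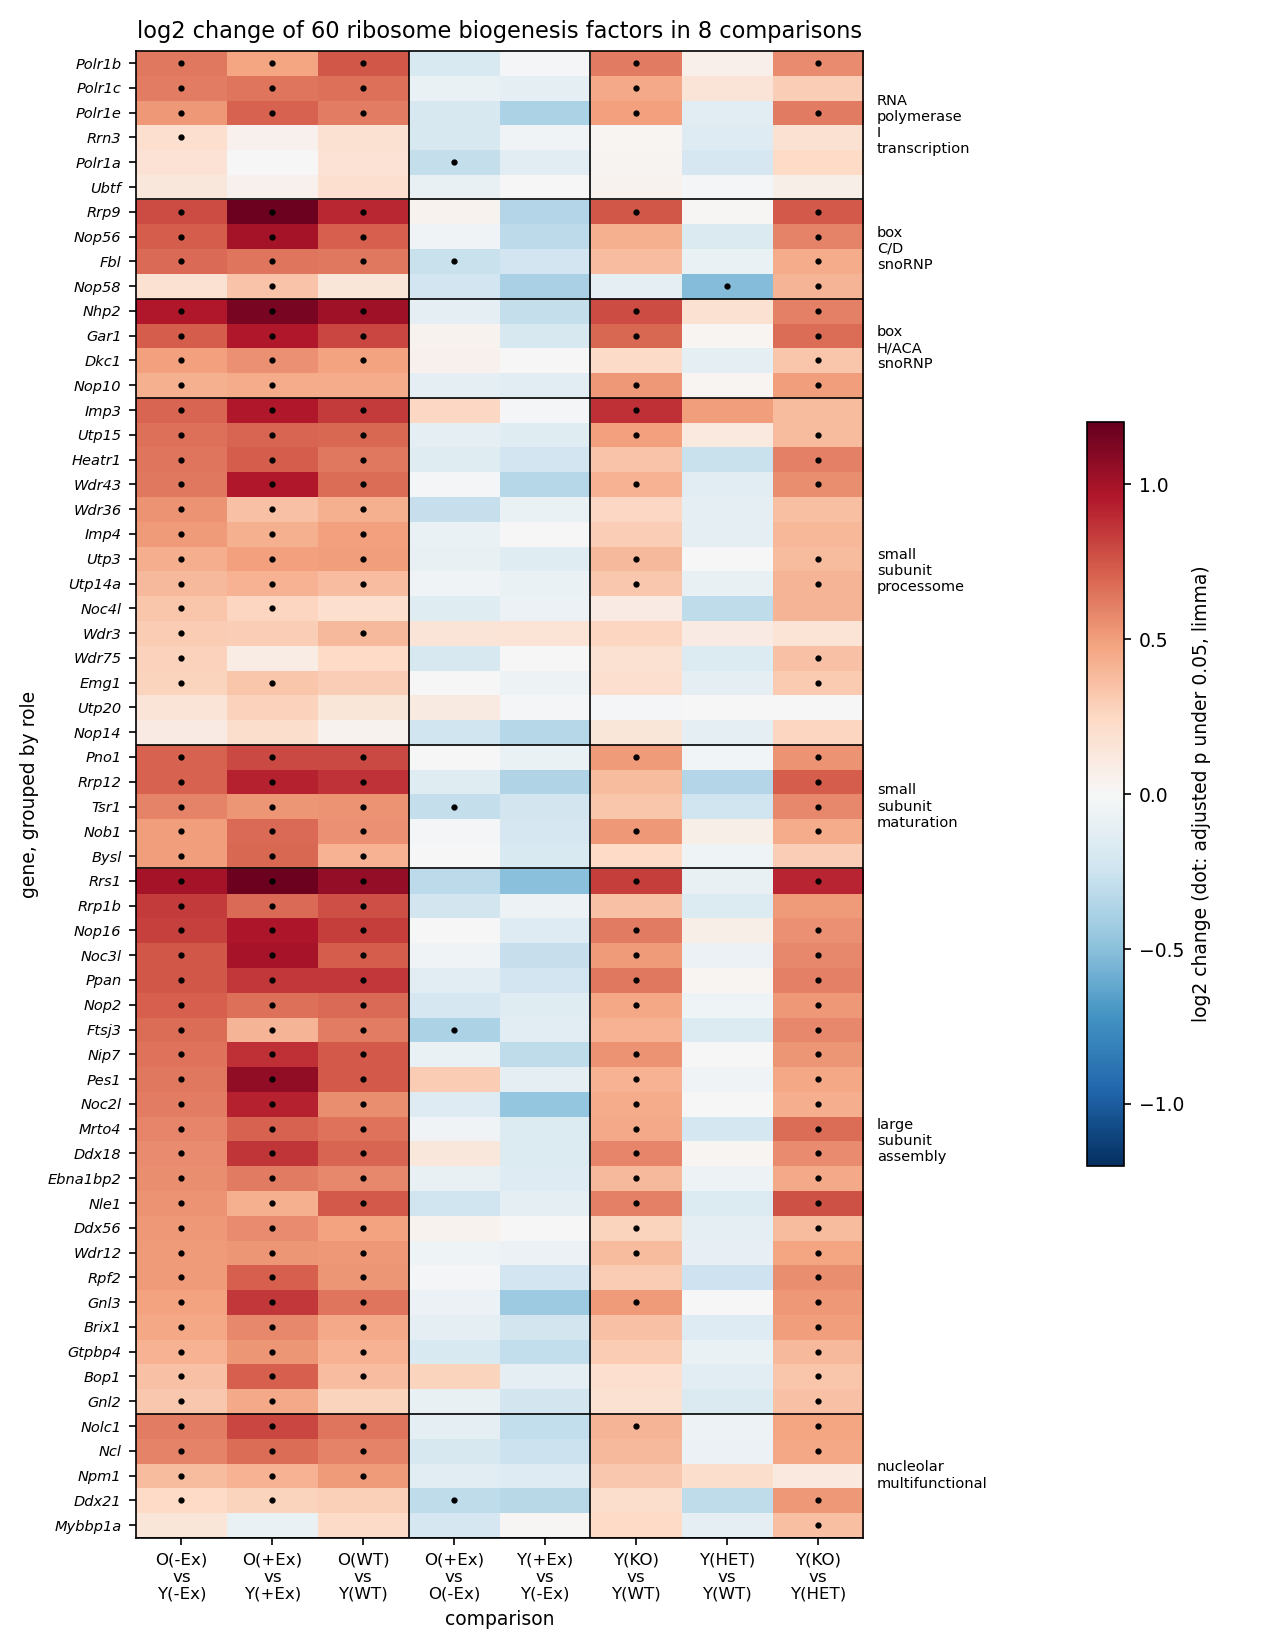
Log2 change of each factor (rows, grouped by role and sorted by the first column) in 8 comparisons (columns, first-named group over second-named group); colour gives the size and a dot marks a limma adjusted p under 0.05. The 3 age columns hold 54, 52 and 47 dots, the 2 wheel columns 5 and 0, and the 3 genotype columns 30, 1 and 46.

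Marker levels of other cells moved with age beside these genes. The summed level of 6 fibro-adipogenic markers was 199 to 274 RPKM in O(-Ex) and 134 to 168 RPKM in Y(-Ex) libraries. Over all 36 libraries, Dcn lay between 33.7 and 153 RPKM, Ly6a between 40.4 and 120 RPKM and Pdgfrl between 20.3 and 34.3 RPKM. Lum lay between 10.5 and 28.0 RPKM, Col6a3 between 1.02 and 4.79 RPKM and Pdgfra between 0.289 and 1.26 RPKM. The sum of 8 immediate early genes that respond to dissociation was 3850 to 4733 RPKM in O(-Ex) and 5050 to 6297 RPKM in Y(-Ex) libraries. The sum of 6 myofibre markers had a lowest, median and highest value of 38.5, 102 and 149 RPKM in O(-Ex) and of 112, 185 and 622 RPKM in Y(-Ex) libraries, and the medians of 6 Schwann cell markers were 193 RPKM in O(-Ex) and 228 RPKM in Y(-Ex) libraries. The part of any of these in the member changes was not tested. The 11 satellite cell markers summed to 2462 to 3316 RPKM in O(-Ex) and 2421 to 3084 RPKM in Y(-Ex) libraries.

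The same question can be asked of mice with a free wheel. In O(+Ex) against Y(+Ex) libraries 52 of 60 members were higher, 0 were lower and 8 did not pass, where 20.5% of all genes were called higher and 17.7% lower. The median log2 change was 0.64, against 0.01 over all genes, and for 50 members the groups did not overlap, which held above for 21.4% of all genes. Nop16 measured 86.1, 104, 84.5, 90.7 and 80.2 RPKM in O(+Ex) libraries and 47.2, 43.5 and 45.0 RPKM in Y(+Ex) libraries. Its lowest old value was well above its highest young one (log2 change 0.97 ± 0.09, limma adjusted p = 3.39e-07). Nhp2 measured 87.0, 109, 95.4, 96.8 and 81.3 RPKM in O(+Ex) libraries and 40.7, 43.8 and 42.6 RPKM in Y(+Ex) libraries. The young values again lay together and apart from the old ones (log2 change 1.14 ± 0.12). Nop56 was higher by 1.00 ± 0.10, with 151 to 187 RPKM in O(+Ex) and 78.5 to 90.0 RPKM in Y(+Ex) libraries. Marker sums separated these groups too. Fibro-adipogenic markers summed to 202 to 280 RPKM in O(+Ex) and 141 to 149 RPKM in Y(+Ex) libraries, and 8 endothelial markers to 138 to 206 RPKM in O(+Ex) and 91.2 to 111 RPKM in Y(+Ex) libraries. Myofibre markers summed to 36.4 to 124 RPKM in O(+Ex) and 195 to 365 RPKM in Y(+Ex) libraries, and immediate early genes to 3574 to 4732 RPKM in O(+Ex) and 5343 to 6196 RPKM in Y(+Ex) libraries. None of these ranges overlapped, and their part in the member changes was not tested.

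Pes1, a subunit of the PeBoW complex, averaged 49.5 ± 5.41 RPKM in O(+Ex) and 23.6 ± 1.25 RPKM in Y(+Ex) libraries, and its log2 change was 1.06 with a free wheel and 0.63 with a locked one. That difference did not pass the test given with the wheel results. Polr1a averaged 4.10 ± 0.363 RPKM in O(+Ex) and 4.08 ± 0.275 RPKM in Y(+Ex) libraries (adjusted p = 0.973). Mybbp1a was the 1 member with a negative log2 change (-0.08, adjusted p = 0.62). Myc, measured as an upstream regulator, averaged 599 ± 109 RPKM in O(+Ex) and 450 ± 28.1 RPKM in Y(+Ex) libraries and was called higher (log2 change 0.40 ± 0.13, adjusted p = 0.0224). With a locked wheel it averaged 629 ± 82.1 RPKM in O(-Ex) and 544 ± 68.9 RPKM in Y(-Ex) libraries, which did not pass (adjusted p = 0.109).

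In the Ccnd1 cohort, with 3 libraries a group, 47 of 60 members were higher in O(WT) than in Y(WT) libraries, 0 were lower and 13 did not pass. Of all genes 8.03% were called higher and 7.76% lower. The median log2 change was 0.57, against -0.01 over all genes. Pes1 measured 42.0, 41.3 and 40.2 RPKM in O(WT) libraries and 26.6, 24.3 and 23.2 RPKM in Y(WT) libraries. Its replicates lay close together in both groups (log2 change 0.74 ± 0.08, limma adjusted p = 6.51e-04). Nhp2 measured 113, 96.4 and 97.2 RPKM in O(WT) libraries and 53.3, 48.3 and 49.1 RPKM in Y(WT) libraries (log2 change 1.02 ± 0.14). Nop2, an RNA methyltransferase of the large subunit, measured 46.9, 43.6 and 42.0 RPKM in O(WT) libraries and 28.3, 25.7 and 28.5 RPKM in Y(WT) libraries. For neither did the groups overlap. The fibro-adipogenic sum was 176 to 302 RPKM in O(WT) and 133 to 170 RPKM in Y(WT) libraries, the Schwann sum 166 to 200 RPKM in O(WT) and 216 to 247 RPKM in Y(WT) libraries, and the immediate early sum 4179 to 4393 RPKM in O(WT) and 4781 to 5875 RPKM in Y(WT) libraries; their part was not tested. In all 3 age comparisons 46 members were called higher, and 5 (Polr1a, Ubtf, Utp20, Nop14 and Mybbp1a) were called in none. The share of all genes called in all 3 was not counted. Because the age differences of the cohorts are not independent, the 46 are not a result found 3 times.

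The wheel comparisons asked how 3 weeks of voluntary running changed these genes within an age. In O(+Ex) against O(-Ex) libraries, 5 members were lower, 0 were higher and 55 did not pass, where 3.3% of all genes were called lower and 4.09% higher. The median log2 change was -0.10, against -0.01 over all genes, and 48 of 60 changes were negative. Ftsj3, an RNA methyltransferase of the large subunit pathway, measured 28.6, 29.0, 30.3, 31.7 and 27.2 RPKM in O(+Ex) libraries and had a lowest, median and highest value of 29.8, 38.3 and 48.2 RPKM in O(-Ex) libraries. The groups overlapped in their tails (log2 change -0.38 ± 0.09, limma adjusted p = 0.0188). Ddx21, a nucleolar RNA helicase, measured 42.9, 45.1, 39.3, 47.9 and 41.9 RPKM in O(+Ex) libraries, and 45.6, 54.7 and 61.0 RPKM were its lowest, median and highest values in O(-Ex) libraries (log2 change -0.31 ± 0.08, adjusted p = 0.0224). Tsr1 was lower by -0.28 ± 0.08, and Polr1a and Fbl were the remaining called members. For 0 members did these groups separate fully, and of all genes only 2.13% separated upward and 1.82% downward.

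These calls changed with single libraries. Without O(+Ex) replicate 3 only 1 member was called lower. The count was 2 without O(+Ex) replicate 5, O(-Ex) replicate 4 or O(-Ex) replicate 5, and 3 without O(+Ex) replicate 1, O(-Ex) replicate 2 or O(-Ex) replicate 7. Without O(-Ex) replicate 7, 1 member was called higher. Over all genes, 351 were called in either direction without O(+Ex) replicate 3, and 471 to 795 in the other fits named here. With all libraries 464 genes were called higher and 374 lower. Endothelial marker sums were 138 to 206 RPKM in O(+Ex) and 91.0 to 149 RPKM in O(-Ex) libraries. Haematopoietic sums were 50.5 to 81.1 RPKM in O(+Ex) and 27.9 to 60.2 RPKM in O(-Ex) libraries. Median sums in O(+Ex) and O(-Ex) libraries were 2277 and 2562 RPKM for satellite cell and 74.3 and 102 RPKM for myofibre markers. They were 239 and 240 RPKM for fibro-adipogenic and 182 and 193 RPKM for Schwann markers. For immediate early genes they were 4121 and 4124 RPKM. The part of these sums in the member values was not tested.

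In young mice 0 of 60 members passed, where 0.714% of all genes were called lower and 0.406% higher by limma. At an unadjusted p under 0.05 there were 23 of 60 members, against 15.8% of all genes, and 56 of 60 log2 changes were negative, with a median of -0.16 against 0.00 over all genes. Noc2l, a large subunit assembly factor, measured 11.7, 9.75 and 9.32 RPKM in Y(+Ex) libraries, and 12.1, 13.7 and 17.0 RPKM were its lowest, median and highest values in Y(-Ex) libraries. The groups did not overlap, but the adjusted p was 0.0716 (log2 change -0.46). Nop14 had an adjusted p of 0.0572 and a log2 change of -0.35, and Nop58 an adjusted p of 0.0639 and a log2 change of -0.39. For 24 members every Y(+Ex) library lay below every Y(-Ex) library, which held for 4.85% of all genes. Without Y(-Ex) replicate 3, 4 members were called lower, and without Y(-Ex) replicate 1, 1 member. Y(+Ex) holds 3 libraries, and the wheel and age comparisons share the locked-wheel libraries.

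The wheel effect in old minus that in young mice was then tested directly; this is the same quantity as the age effect with a free wheel minus that with a locked wheel. For 0 of 60 members was it called by limma, and 6 had an unadjusted p under 0.05, as 8.47% of all genes did, while 0.00882% of all genes were called higher and 0% lower. The lowest p belonged to Pes1, with a difference of 0.43 ± 0.17 (log2, adjusted p = 0.524), followed by Rrp9 at 0.40 ± 0.17 and Gnl3 at 0.37 ± 0.16. Pes1 averaged 49.5 RPKM in O(+Ex), 40.2 RPKM in O(-Ex), 23.6 RPKM in Y(+Ex) and 25.9 RPKM in Y(-Ex) libraries.

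**Figure D3:**
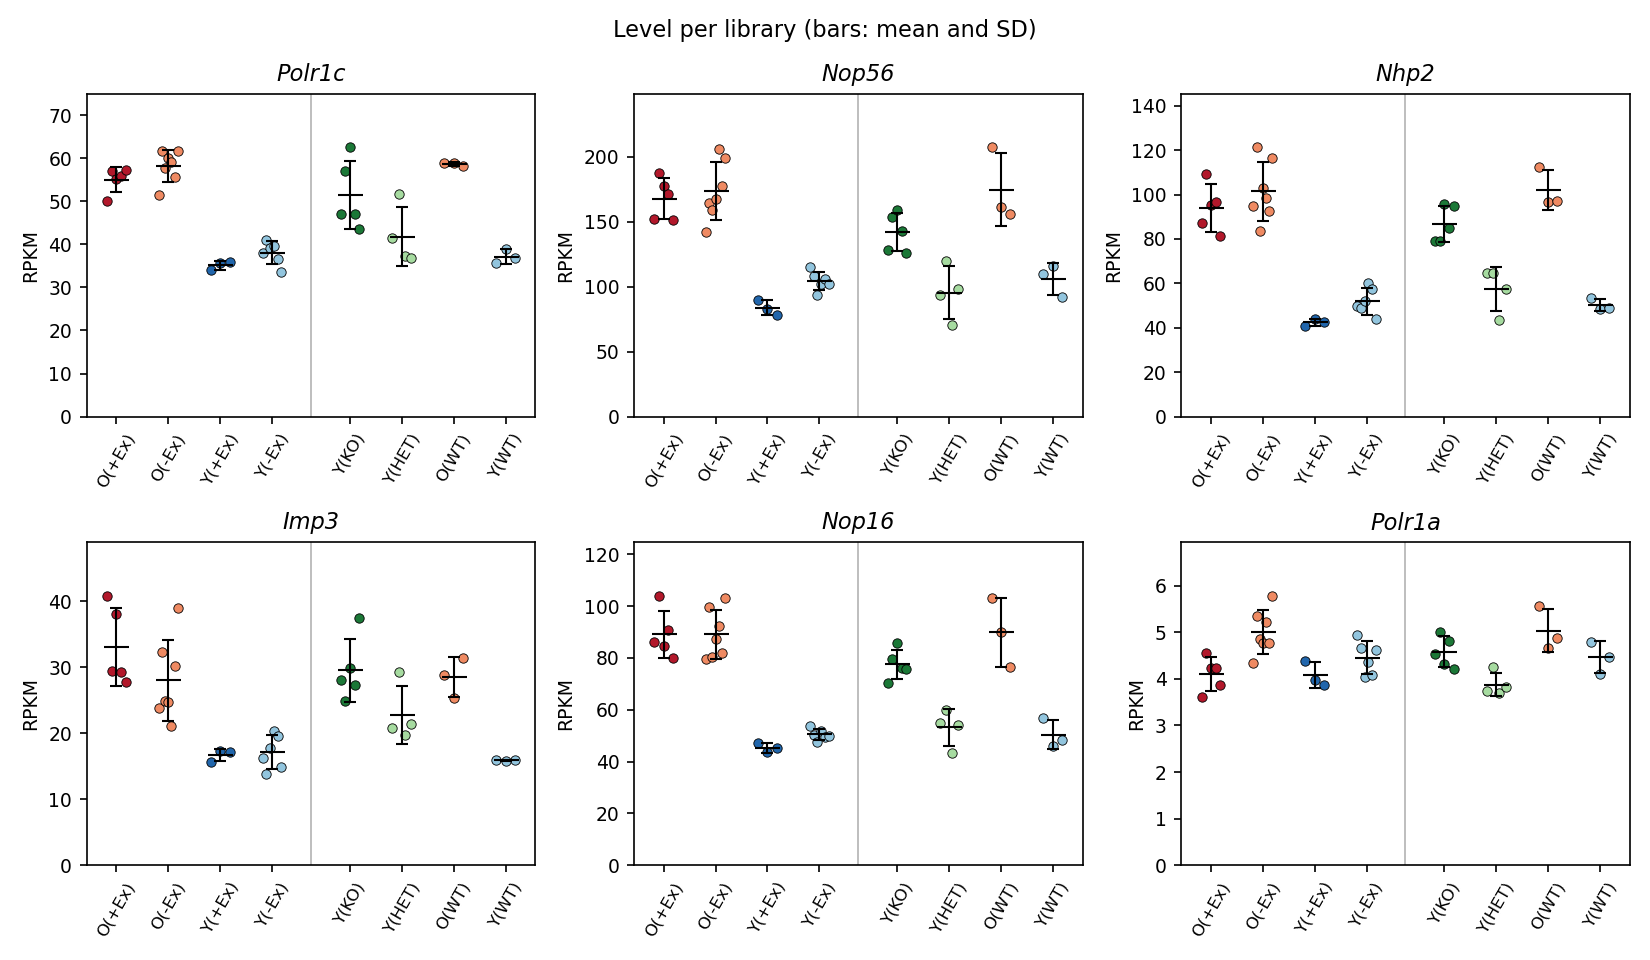
RPKM of 6 members in every library, by group, with group mean and SD. Polr1c, Nop56, Nhp2, Imp3 and Nop16 lie higher in old than in young WT or locked-wheel libraries, with KO libraries above WT, and the O(-Ex) and Y(-Ex) groups of Polr1a overlap.

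The Ccnd1 alleles asked what loss of cyclin D1, a driver of entry into the cell cycle, does to these genes in young cells. In Y(KO) against Y(WT) libraries 30 of 60 members were higher, 0 were lower and 30 did not pass, where 5.05% of all genes were called higher and 1.94% lower. The median log2 change was 0.38, against 0.02 over all genes, and 58 of 60 changes were positive. For 49 members every KO library lay above every WT library, which held for 11.2% of all genes. Of the roles, 15 of 22 large subunit factors, 5 of 14 processome factors, 2 of 5 maturation factors, 3 of 4 H/ACA, 1 of 4 C/D, 3 of 6 polymerase and 1 of 5 multifunctional members were called.

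Imp3, a U3-associated processome protein (chr9:56937475-56938398, plus strand), measured 28.0, 24.9, 29.9, 27.3 and 37.5 RPKM in Y(KO) libraries and 15.9, 15.9 and 15.9 RPKM in Y(WT) libraries. The WT values were nearly equal and all KO values above them (log2 change 0.88 ± 0.14, limma adjusted p = 0.00756). Nhp2 measured 79.1, 79.1, 95.8, 85.0 and 94.7 RPKM in Y(KO) libraries and 53.3, 48.3 and 49.1 RPKM in Y(WT) libraries (log2 change 0.78 ± 0.12, adjusted p = 0.00822). Ddx18, an RNA helicase of large subunit assembly, measured 13.7, 13.4, 14.6, 16.7 and 17.4 RPKM in Y(KO) libraries and 9.84, 10.7 and 9.62 RPKM in Y(WT) libraries (log2 change 0.59 ± 0.10). Neither gene's groups overlapped. Rrs1 was higher by 0.83 and Nop16 by 0.62. Nop58 went the other way without passing, at 84.8 ± 12.7 RPKM in Y(KO) and 91.4 ± 9.36 RPKM in Y(WT) libraries (SD, n = 5 and 3; adjusted p = 0.552).

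With 3 WT libraries, this count of 30 changed with single libraries. It was 5 without Y(WT) replicate 3, 7 without Y(WT) replicate 2 and 19 without Y(WT) replicate 1. It was 14 without Y(KO) replicate 3 and 14 without Y(KO) replicate 5. Calls over all genes fell as well, from 573 higher and 220 lower with all libraries. In both directions together they were 98, 116 and 595 without Y(WT) replicates 3, 2 and 1. They were 320 and 314 without Y(KO) replicates 3 and 5. The lower member counts are thus not particular to the members. No member was called lower in any of these. The fibro-adipogenic marker sum was 163 to 212 RPKM in Y(KO) and 133 to 170 RPKM in Y(WT) libraries. Median sums in Y(KO) and Y(WT) libraries were 121 and 179 RPKM for myofibre, 183 and 236 RPKM for Schwann and 126 and 105 RPKM for endothelial markers. They were 56.0 and 27.5 RPKM for haematopoietic markers and 4927 and 5471 RPKM for immediate early genes. The ranges of all these sums overlapped, and their part in the member changes was not tested.

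The heterozygous mice kept 1 intact copy of Ccnd1. In Y(HET) against Y(WT) libraries 1 of 60 members was lower and 0 were higher, where 3.4% of all genes were called lower and 1.98% higher. The median log2 change was -0.08, against -0.06 over all genes. The called member was Nop58, with 61.9, 68.1, 58.7 and 66.0 RPKM in Y(HET) libraries and 101, 82.2 and 91.2 RPKM in Y(WT) libraries. The groups did not overlap (log2 change -0.52 ± 0.12, limma adjusted p = 0.0261). The call was lost on leaving out Y(HET) replicate 1 or 4 or any of the 3 Y(WT) libraries, and 1 member was called higher without Y(HET) replicate 3. Over all genes 68 to 524 were called in the fits that lost it, against 386 lower and 225 higher with all libraries. Without Y(HET) replicate 3, 621 genes were called. Imp3 averaged 22.8 ± 4.39 RPKM in Y(HET) and 15.9 ± 0.0410 RPKM in Y(WT) libraries, which did not pass (adjusted p = 0.0554).

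Set against each other directly, Y(KO) libraries had 46 of 60 members higher than Y(HET) libraries, 0 lower and 14 that did not pass, where 5.15% of all genes were called higher and 0.891% lower. The median log2 change was 0.46, against 0.08 over all genes. With median-of-ratios scaling between libraries, which moves the all-gene median by -0.09, 27 members were called, and in a fit of these 2 groups alone 28 were. Pes1 measured 31.5, 30.5, 32.8, 34.6 and 36.1 RPKM in Y(KO) libraries and 23.4, 23.8, 24.1 and 24.4 RPKM in Y(HET) libraries. The HET values lay within 1 RPKM of each other and below every KO value (log2 change 0.47 ± 0.07, limma adjusted p = 0.0021). Nop2 measured 35.3, 36.3, 36.6, 38.4 and 43.6 RPKM in Y(KO) libraries and 27.9, 27.6, 23.6 and 26.9 RPKM in Y(HET) libraries (log2 change 0.52 ± 0.08). Ebna1bp2, which acts in large subunit RNA processing, was higher by 0.45 ± 0.07. Y(HET) replicate 3 was the lowest library of the series for the member median, and without it 30 members were called. Over all genes 265 were called without it, against 584 higher and 101 lower with all libraries. The fibro-adipogenic marker sum was 163 to 212 RPKM in Y(KO) and 138 to 154 RPKM in Y(HET) libraries, with no overlap, and its part was not tested.

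The KO comparisons share their Y(KO) libraries. Between Y(WT) and Y(-Ex) libraries 0 of 11337 genes had an unadjusted limma p under 0.05. The age and genotype results are therefore set side by side here and not counted as separate evidence. The log2 change of Nhp2 was 0.96 with age and a locked wheel, 0.78 in KO against WT and 0.60 in KO against HET libraries. For Rrs1 the values were 1.00, 0.83 and 0.92, and for Nop16 0.82, 0.62 and 0.55. Polr1a, Ubtf, Utp20 and Nop14 passed in none of the 3. Nop58 had log2 changes of 0.18, -0.12 and 0.40.

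Further genes, most of them of the pathway, were examined in lists beside the members. The lists also hold Nsun4 (small subunit) and Cavin1 (polymerase I), whose main known roles lie outside nucleolar ribosome production. With age and a locked wheel, 6 of 10 other RNA polymerase I genes, 26 of 38 other small subunit factors, 29 of 39 other large subunit factors, 6 of 11 snoRNP assembly genes and 8 of 13 RNA exosome genes were higher and 0 lower. Together these were 75 of 111 genes with a median log2 change of 0.37, against 0.01 over all genes. Of all genes 20.5% were called higher and 17.8% lower in that comparison. In KO against WT libraries 27 of the 111 were higher, 0 were lower, and the median was 0.24, against 0.02 over all genes. There 5.05% of all genes were called higher and 1.94% lower. Cd3eap (Polr1g), a polymerase I subunit, averaged 22.7 ± 4.12 RPKM in O(-Ex) and 10.0 ± 1.50 RPKM in Y(-Ex) libraries (log2 change 1.18 ± 0.13), and its log2 change was 1.09 ± 0.17 in KO against WT libraries.

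Upstream regulators were called in both directions. With age and a locked wheel, 3 of 22 were higher and 8 lower, beside the 20.5% of all genes called higher and 17.8% called lower, with a median log2 change of -0.08. Mxd4, a Max partner that opposes Myc, averaged 2.23 ± 0.152 RPKM in O(-Ex) and 3.61 ± 0.459 RPKM in Y(-Ex) libraries (log2 change -0.69 ± 0.09, limma adjusted p = 4.08e-06). In the same comparison the genes called lower included Max, Mxd1, Tsc2, Maf1 (a repressor of RNA polymerase III), Mtor and Kdm2a, and Rheb, Rps6kb1 and Sirt7 were called higher. In KO against WT libraries 0 of 22 passed, and 4 had an unadjusted p under 0.05, where 25.7% of all genes did. Myc averaged 528 ± 37.4 RPKM in Y(KO) and 577 ± 117 RPKM in Y(WT) libraries (adjusted p = 0.655).

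**Figure D4:**
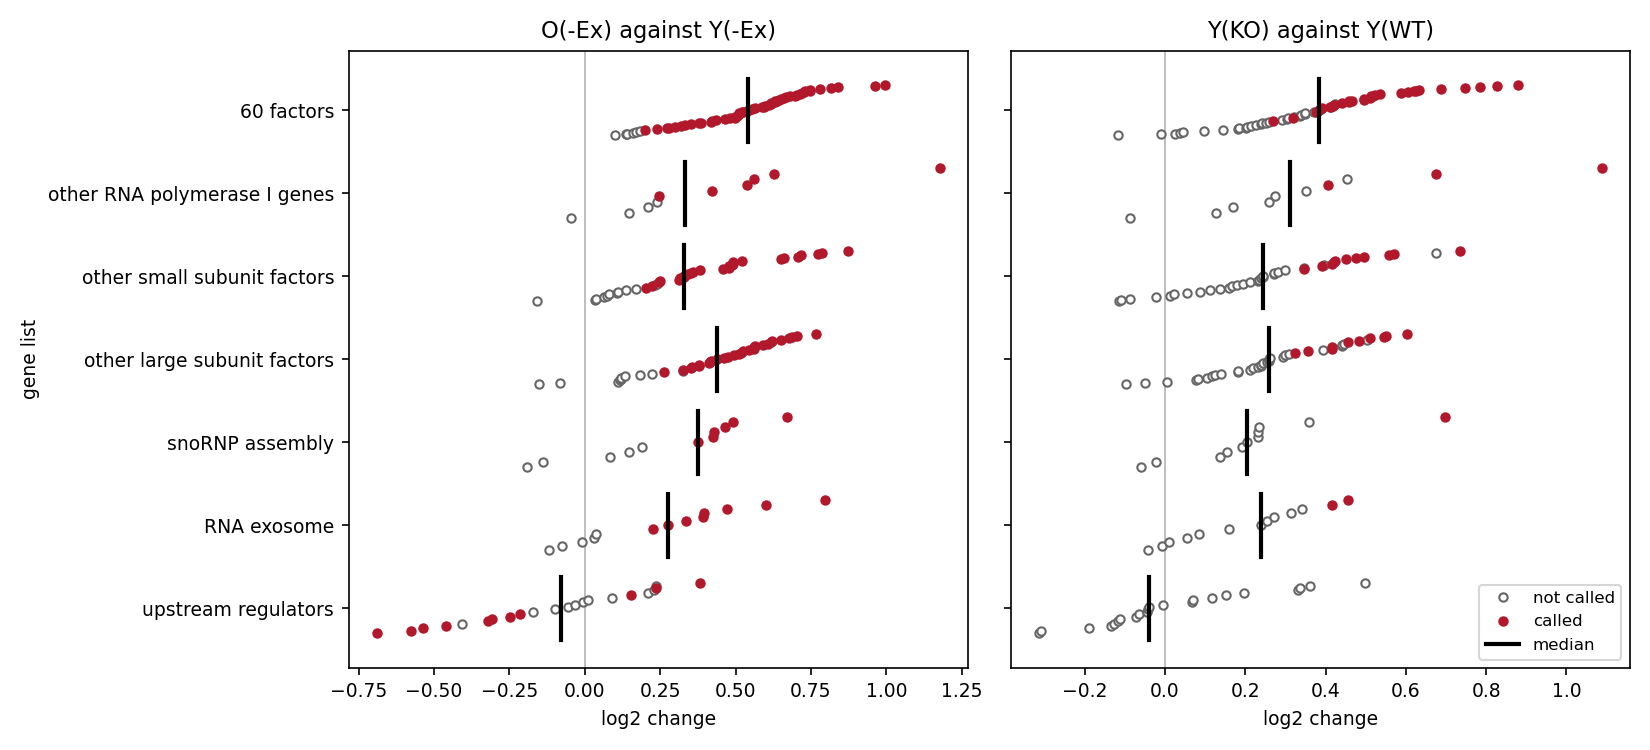
Log2 change of the 60 factors and of 6 other gene lists (rows, 1 point per gene, filled red where the limma adjusted p is under 0.05, black line at the list median) for O(-Ex) against Y(-Ex) on the left and Y(KO) against Y(WT) on the right. Called genes of the first 6 rows lie to the right of 0 in both panels, and called regulators lie on both sides of 0 on the left.

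Members also varied together among mice of 1 group. After group means were removed, the mean correlation over the 1770 pairs of members was 0.30 across the 36 libraries, 88.3% of pairs were positive, and the mean over all genes was 0.01. The table had lost directions of variation, any adjustment behind that loss is not stated, and depth per library is unknown. The correlations are therefore a description. Mrto4, an assembly factor that resembles a ribosomal stalk protein, followed the mean of the other members most closely (r = 0.88), followed by Nip7 and Nob1, and Utp20 (r = 0.04) and Wdr3 (r = 0.06) least. In the authors' deposited table, the correlation coefficient with Ccnd1 was negative for 53 of 60 members, with a median of -0.18 and values from -0.70 for Nop14 to 0.30 for Bop1. Over all genes, the authors' deposited table held negative coefficients for 49.3%. Which libraries the coefficients cover is not stated, so they may restate the age and genotype differences given above.

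In the GENCODE M21 annotation of mm10, 29 of the 60 members share exon bases with another gene, 26 of them with a gene on the opposite strand. These include Nhp2 with Rmnd5b, Rrp9 with Parp3, Tsr1 with Srr and Nop56 with Idh3b. Nop56, Gnl3 and Ncl overlap small nucleolar RNA genes of the same strand (Snord57, Snord19 and Snora75 among them). Whether reads were counted by strand is not stated, so the values of these members may include reads of the overlapping genes. Gtpbp4 and Mrto4 have named pseudogenes whose reads could be split between copies.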

How the data were processed

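The submitters' processing notes name Trim Galore, STAR, featureCounts of Subread and the mm10 build. Their versions, the strand setting and any later adjustment are not stated there. The authors deposited 1 table of RPKM for 11337 genes and 36 libraries and, per gene, a correlation score with Ccnd1. The header names no unit, and RPKM was read from the values. Centred on the log2 scale, the table had a rank of 29 out of a possible 35.

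Log2 RPKM without a pseudocount was fitted within each cohort (21 and 15 libraries) with 1 mean per group in limma 3.58.1 (R 4.3.3, eBayes with trend and robust settings). The fit was also run on simulated data with independent noise for each gene. Those data held neither the lost directions nor the shared variation of the members, so that run cannot show how accurate the calls are here. Benjamini-Hochberg adjustment ran over 11337 genes, with calls under 0.05. No allowance was made for the lost directions, so standard errors and adjusted p-values may be too small. Each replicate is 1 mouse per the labels. The members, lists, roles and tests were chosen with earlier results of these data known. Genes named were, for age with a locked wheel, the 2 called members with the lowest p in each role; elsewhere the 3 called members with the lowest p in each direction, or the 3 lowest p where none passed; the 3 highest and 3 lowest means; and Myc. Other named members were chosen after their values were seen. Of 138 further genes in the pathway and regulator lists 133 were found. Depth per library is unknown, so no counting interval is given.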

Additional observations from a re-analysis of the deposited data

Results flagged for a closer look

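Within groups of 4 to 10 libraries, the gap between the most extreme library and its neighbour was compared with Dixon's 95% critical value for 31 named genes, and 13 of 155 groups passed it, where chance gives about 1 in 20. The explanation of these values was not tested.

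Of the 13, 8 were the highest value of Y(-Ex) replicate 4. In that library Npm1 was 430 RPKM (253 to 291 in the other Y(-Ex) libraries), Gnl3 171 RPKM (101 to 110), Ncl 114 RPKM (96.7 to 99.2), Utp3 71.4 RPKM (57.6 to 61.1), Ppan 46.9 RPKM (35.5 to 39.1), Rrp9 45.4 RPKM (26.6 to 32.5), Nob1 30.8 RPKM (23.9 to 26.2) and Ddx18 16.1 RPKM (8.59 to 11.1). The same library was not the highest of Y(-Ex) for Nop16 (51.7 RPKM) or Nop58 (78.9 RPKM).

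In old locked-wheel libraries, Npm1 was high in O(-Ex) replicate 2 at 421 RPKM (357 to 376 in the others) and Ncl was low in O(-Ex) replicate 3 at 127 RPKM (150 to 161). With a free wheel, Nop58 was high in O(+Ex) replicate 2 at 107 RPKM (79.1 to 85.0) and Polr1c low in O(+Ex) replicate 1 at 50.0 RPKM (55.1 to 57.2). Gar1 was low in Y(HET) replicate 3 at 19.4 RPKM (27.6 to 29.0).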

How the results depend on the processing

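Counts of members called higher with age, and their direction, held under a pseudocount of 1, a minimum mean of 5 RPKM, median-of-ratios scaling, plain eBayes, a fit of the compared groups alone, a fit of all 36 libraries and a replicate block, all within 1.5 times. Leaving out 1 library gave 53 to 54 (locked wheel), 47 to 52 (free wheel) and 35 to 45 (Ccnd1 cohort). For the free wheel in old mice, members lower numbered 2 in the fit of 2 groups, 3 with the replicate block and 1 to 7 on leaving out a library; 1 was higher in the fit of 36 libraries, and 0 to 1 on leaving out a library. In young mice 2 were lower with the 5 RPKM minimum and 2 in the fit of 36 libraries, and 0 to 4 on leaving out a library. KO against WT gave 5 to 26 on leaving out a library and 0 with the replicate block, where 1 gene of all passed. HET against WT gave 1 higher with median-of-ratios scaling, 0 lower with the block, and 0 to 1 either way on leaving out a library. KO against HET gave 27 with that scaling, 28 in the fit of 2 groups, 23 with the block and 30 to 48 on leaving out a library. Signs were compared under every setting only for 36 pairs of a named member and its comparison, and none reversed. With median-of-ratios scaling 0 called members changed sign in any of the 8 comparisons. For the other called members, signs under the other settings were not compared 1 by 1. The causes were not tested. Deviations of same-numbered libraries correlated over 0.1 for every pair in 0 of 8 comparisons, so the numbers were not taken to pair the mice; the free wheel in old mice came nearest, with 4 of 5 pairs over 0.1 (-0.15 to 0.30) and 3 of 5 best with their own number, and a call lost under the block is not read as a weaker effect. RPKM keep no depth, so the precision of low members such as Utp20 is unknown.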
